A study of Sus scrofa with 8 samples.

Results

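The growth hormone and insulin-like growth factor (IGF) axis was described in the jejunum of suckling and weaned piglets through 10 listed genes: the ligands IGF1 and IGF2, the receptors IGF1R, INSR and GHR, and the binding proteins IGFBP1 to IGFBP5. A gene was included when a probe of the array carried a RefSeq accession of that gene, and its brightest probe over all arrays represented it. This gave 8 of the 10 genes, out of 3216 genes named in this way on the array. INSR and IGFBP1 had no such probe and have no value here. All 8 genes were well above background on all 8 arrays, so all 8 entered the test.

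The study hybridised RNA from the middle jejunum of 8 Duroc × Landrace piglets, each 25 days old, to 1-colour arrays, with 1 piglet per array. The suckling group, 4 piglets, had stayed with the sow. The weaned group, also 4 piglets, had been taken from the sow at 21 days of age, 4 days before sampling, and fed a diet whose crude protein was 20.50% and whose digestible energy was 14.48 MJ/kg. Piglets of both groups came from the same 4 litters, were chosen near the average weight and were killed under pentobarbital anaesthesia. Each sample was a 2 cm piece of the whole gut wall, in which fewer cells of a type and less RNA per cell cannot be told apart.

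Growth hormone acts through its receptor GHR and the kinase JAK2, and in the liver it drives the secretion of IGF1. IGF1 and IGF2 bind the receptor tyrosine kinase IGF1R, which signals through adaptor proteins to the kinases AKT1 and MTOR and promotes cell growth and division. IGF binding proteins hold the ligands in the circulation and in tissue and can limit or prolong their access to the receptor. In the intestine, IGF1 is made largely by mesenchymal cells and acts on the crypt epithelium, and milk supplies IGFs to the suckling gut.

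Several features of the arrays bear on every comparison. The 2 groups were on separate slides, and an effect of the slide cannot be told apart from that of weaning. Each replicate number was also the array's position on its slide, so a pattern shared by same-numbered arrays cannot be told apart from position. Suckling replicate 1 was the highest or the lowest suckling array for 67.7% of tested probes, against 38.6% to 49.0% for the other suckling arrays, and for 7 of the 8 axis genes. Its 75th percentile of processed intensity was 245, against 317 to 395 on the other 7 arrays. It was most like weaned replicate 1 (r = 0.98 over tested probes, as a description), and suckling replicate 3 was likewise most like a weaned array, weaned replicate 3 (r = 0.98). The axis genes and the gene lists are therefore given with and without suckling replicate 1. The absorptive enterocyte genes FABP1, FABP2, APOA4 and ANPEP were well above background on all 8 arrays. Per array, 67.6% to 71.0% of all probes were that bright, so this is a weak check of the tissue label. It does not tell the jejunum from other parts of the small intestine. Values are log2 signals with each array's 75th percentile set to 0, and a positive difference means higher in weaned piglets.

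None of the 8 axis genes passed the threshold of a limma adjusted p under 0.05 over all 30554 tested probes with the 8 arrays. In the same comparison 0.177% of tested probes passed, 54 in all. That count grew to 553 when suckling replicate 1 was left out, shrank to 21 and 25 when suckling replicate 2 or 3 was, and to 10, 11, 20 and 9 when weaned replicate 1, 2, 3 or 4 was. At an unadjusted limma p under 0.05 there was 1 axis gene, IGFBP2, where 12.3% of probes reached that level. IGFBP2 had the widest difference, with a lower mean in weaned piglets, followed by IGFBP3, also lower, and IGFBP5, higher. In 3 genes the weaned mean was higher and in 5 it was lower. The median difference was -0.13, against 0.039 over all tested probes, and the median size of a difference, without its sign, was 0.20 against 0.22. No axis gene had groups that did not overlap, as 7.75% of tested probes did.

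Without suckling replicate 1, IGFBP3 fell in weaned piglets and was the 1 axis gene past the threshold (limma adjusted p = 0.0486), where 1.82% of 30344 tested probes passed and 0.59% passed with a lower weaned level. At an unadjusted limma p under 0.05 there were 3 axis genes, IGFBP2, IGFBP3 and IGFBP5, where 22.5% of tested probes reached that level. In these 7 arrays the groups of 3 axis genes did not overlap, IGFBP2 and IGFBP3 with lower and IGFBP5 with higher weaned values, beside 20.5% of tested probes, 8.33% with lower and 12.2% with higher weaned values. The median difference of the 8 genes was then -0.0008, against 0.047 over all tested probes.

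**Figure D1:**
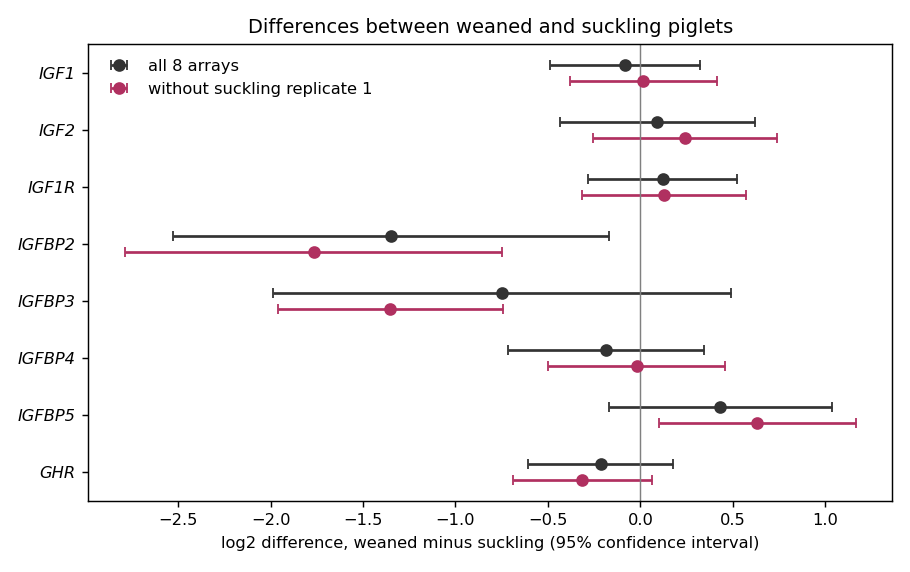
Log2 difference between weaned and suckling piglets for each of the 8 axis genes (x axis, points with limma 95% confidence intervals), with all 8 arrays in black and without suckling replicate 1 in red. IGFBP2 lay farthest below 0, and its interval left out 0, in both runs. Without suckling replicate 1 the intervals of IGFBP3 (-1.96 to -0.75) and IGFBP5 (0.10 to 1.17) also left out 0. The intervals are not adjusted for the number of tested probes.

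IGF1, the ligand that carries much of the growth-promoting action of growth hormone, had -1.07, -1.72, -1.36 and -1.31 in suckling replicates 1 to 4. It had -1.68, -1.51, -1.33 and -1.25 in weaned replicates 1 to 4. The weaned range lay inside the suckling range, and suckling replicate 1 was the highest of the 8 arrays. The difference was -0.082 (SE 0.18, 95% confidence interval -0.49 to 0.33, limma adjusted p = 0.885). It was 0.017 without suckling replicate 1, with an interval of -0.38 to 0.41.

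IGF2, the ligand known for its high level before birth, had 2.14, 1.29, 1.42 and 1.91 in suckling replicates 1 to 4. In weaned replicates 1 to 4 it had 1.86, 1.90, 2.00 and 1.37. Each group held both low and high arrays: suckling replicates 2 and 3 and weaned replicate 4 were low, and the other 5 were high. The means were 1.69 ± 0.40 and 1.78 ± 0.28 (SD, n = 4 per group), a difference of 0.092 (95% confidence interval -0.43 to 0.62, limma adjusted p = 0.901). Without suckling replicate 1 the difference was 0.24, with an interval of -0.26 to 0.74, and without suckling replicate 2 it was -0.042.

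IGF1R, the receptor kinase for both ligands, had the values -3.16, -3.08, -2.98 and -3.49 in suckling replicates 1 to 4. The weaned values were -2.75, -2.99, -3.25 and -3.23 in the same order. Weaned replicate 1 was the highest array and suckling replicate 4 the lowest, and the groups overlapped. The difference was 0.12 (95% confidence interval -0.28 to 0.52, limma adjusted p = 0.818), and 0.13 without suckling replicate 1. Leaving out suckling replicate 4 brought it to 0.016, and leaving out weaned replicate 1 to 0.020. The processed intensity of this probe was between 27.5 and 50.2.

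GHR, the growth hormone receptor, had 0.12, 0.46, 0.39 and 0.71 in suckling replicates 1 to 4. Weaned replicates 1 to 4 had -0.017, 0.19, 0.19 and 0.46. Suckling replicate 4 was the highest array and weaned replicate 1 the lowest, and suckling replicate 1 lay among the weaned arrays. The difference was -0.21 (SE 0.17, 95% confidence interval -0.61 to 0.18, limma adjusted p = 0.654). It was -0.31 without suckling replicate 1 (limma adjusted p = 0.296) and -0.12 without suckling replicate 4.

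IGFBP2, a binding protein with preference for IGF2, varied most among suckling piglets relative to weaned piglets. Its suckling values were 0.48, 2.41, 1.01 and 3.05 in replicates 1 to 4, and the processed intensity ran from 342 to 2820. Its weaned values were 0.055, 0.35, 0.88 and 0.25. Suckling replicates 2 and 4 were above all other arrays, suckling replicate 3 was just above the highest weaned array, and suckling replicate 1 lay inside the weaned range. The group means were 1.74 ± 1.19 and 0.39 ± 0.35 (SD, n = 4 per group). The weaned mean was 2.55-fold lower, with a log2 difference of -1.35 (SE 0.52, 95% confidence interval -2.53 to -0.17, unadjusted p = 0.0293, limma adjusted p = 0.354). Without suckling replicate 1 the groups did not overlap and the difference was -1.77, which still missed the threshold (limma adjusted p = 0.0782). The suckling SD of 1.19 was exceeded by 3.17% of tested probes and the weaned SD by 28%.

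IGFBP3, which carries most circulating IGF, had -3.73, -1.55, -1.32 and -1.06 in suckling replicates 1 to 4. Weaned replicates 1 to 4 had -3.27, -2.62, -2.63 and -2.13. Suckling replicates 2, 3 and 4 were the highest 3 of the 8 arrays, and suckling replicate 1 was the lowest of all. The processed intensity was 18.5 in suckling replicate 1, 134 to 164 in the other suckling arrays and 32.9 to 87.5 in weaned arrays. With all 8 arrays the means were -1.91 ± 1.23 and -2.66 ± 0.46 (SD, n = 4 per group), and the difference of -0.75 did not pass (SE 0.55, 95% confidence interval -1.99 to 0.49, limma adjusted p = 0.613). Without suckling replicate 1 the suckling mean was -1.31 ± 0.25 (SD, n = 3), and the level of IGFBP3 in weaned piglets fell by 1.35 in log2 units, or 2.55-fold (SE 0.26, limma adjusted p = 0.0486). This call rests on leaving out 1 array that was singled out after its profile was known. In 2 runs that kept suckling replicate 1, and so do not check this call, the difference did not pass either. It was -0.46 without suckling replicate 4. Under normexp background correction with an offset of 50 it was -0.45, with a smaller SE of 0.24 (limma adjusted p = 0.482).

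IGFBP5, which binds to extracellular matrix and is made by mesenchymal cells and smooth muscle, had 1.58, 1.02, 0.90 and 0.40 in suckling replicates 1 to 4. In weaned replicates 1 to 4 it had 1.67, 1.71, 1.13 and 1.11. The 4 weaned arrays were above suckling replicates 2, 3 and 4, and suckling replicate 1 was within the weaned range. The weaned mean was 1.35-fold higher, with a log2 difference of 0.43 (SE 0.27, 95% confidence interval -0.17 to 1.04, limma adjusted p = 0.551). Without suckling replicate 1 the difference was 0.63 (95% confidence interval 0.10 to 1.17, limma adjusted p = 0.163), and without suckling replicate 4 it was 0.24. IGFBP5 and IGFBP2 are neighbouring genes in the pig annotation, and their means differed between the groups in opposite directions, neither past the threshold.

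IGFBP4, an inhibitory binding protein that the protease PAPPA cleaves, had -1.52, -2.32, -2.11 and -2.12 in suckling replicates 1 to 4. The weaned values in the same order were -1.73, -2.21, -2.58 and -2.30. Replicate 1 was the highest array of its group in both groups. The difference of -0.18 (95% confidence interval -0.71 to 0.35, limma adjusted p = 0.788) shrank to -0.019 without suckling replicate 1.

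**Figure D2:**
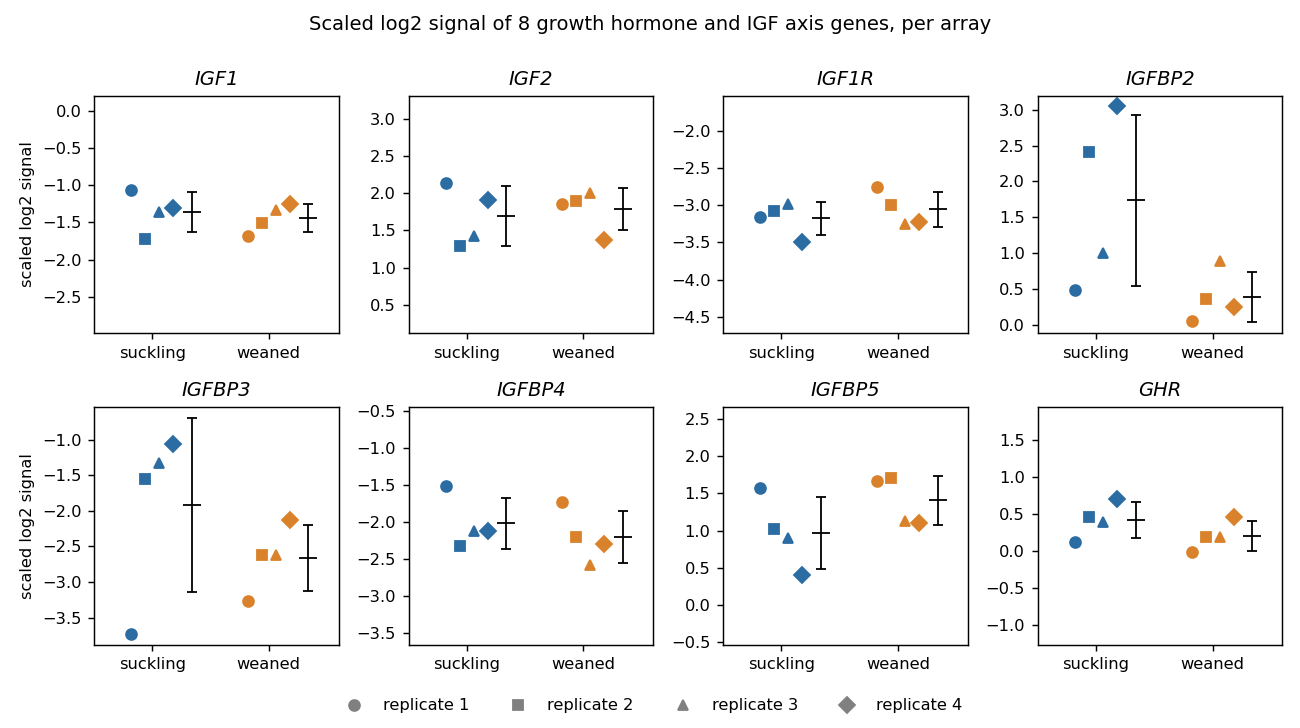
Scaled log2 signal (y axis, 0 is the array's 75th percentile) of the 8 axis genes in 4 suckling (blue) and 4 weaned (orange) piglets, with a marker shape per replicate number and the mean ± SD of each group in black. The panels differ in level but each spans at least 3.2 log2 units, and suckling replicate 1 sits away from the other 3 suckling arrays in IGFBP3.

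Read across arrays, IGFBP2, IGFBP3 and GHR shared their highest array, which was the lowest one for IGFBP5. Suckling replicate 4 was the highest of the 8 arrays for IGFBP2, IGFBP3 and GHR and the lowest for IGFBP5. Weaned replicate 1 was the lowest weaned array for the same 3 genes. Both ligands, IGFBP4 and IGFBP5 instead had their highest suckling value in suckling replicate 1. The genes share the 8 arrays, so such an order is a description of these piglets.

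Where a gene had several probes, these measured the same RNA on the same arrays and serve as a check of the measurement. The 5 IGF2 probes gave differences from -0.039 to 0.18, and none passed the threshold. The other 4 IGF2 probes had correlations of 0.92 to 0.98 with the brightest one over the 8 arrays. Both IGFBP2 probes had nearly the same profile (r = 0.998), with differences of -1.37 and -1.35. The GHR probes, with -0.21 and -0.21, also followed each other (r = 0.94). The IGF1R probes were less alike (r = 0.72), with 0.068 and 0.12, and without suckling replicate 1 they pointed in opposite directions, at -0.040 and 0.13. IGF1, IGFBP3, IGFBP4 and IGFBP5 each had 1 probe.

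**Figure D3:**
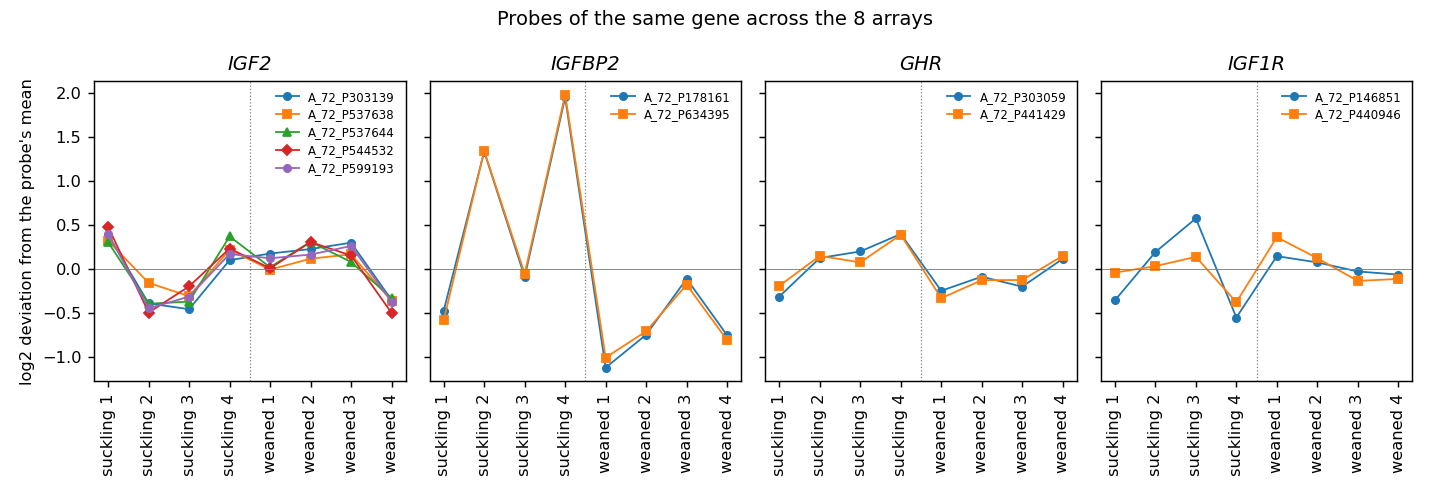
Deviation of each probe from its own mean over the 8 arrays (y axis, log2) for the 4 axis genes with several probes, with one line per probe and the arrays along the x axis. The lines of IGF2, IGFBP2 and GHR lie close together, and the 2 IGF1R probes part in the suckling arrays.

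Markers of the cell types in the gut wall varied among the same arrays. For villus enterocytes, 7 of 12 listed markers were tested, 6 of these had a lower mean in weaned piglets and none passed the threshold. Their summed signal, in units of the array's 75th percentile, was 599 in suckling replicate 1 and 2443 to 3482 in the other suckling arrays, against 1000.2 to 2075 in weaned arrays. The median marker was lowest in suckling replicate 1 (-1.25 from its mean over the arrays) and weaned replicate 1 (-0.78) and highest in suckling replicate 4 (1.13), arrays that also lay at the low and high ends for IGFBP3 and GHR. In the run without suckling replicate 1, in which IGFBP3 passed, all 7 had a lower weaned mean, 4 of them at an unadjusted limma p under 0.05, where 22.5% of all probes reached that level, and their median difference was -0.80, against -0.33 with all 8 arrays. None passed the threshold in that run either. The part of the villus markers in these differences was not tested.

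Proliferating crypt cells had 3 of 9 markers tested, TOP2A, CCNB1 and CDK1, all with a higher weaned mean and none past the threshold. Their sum ran from 7.06 in suckling replicate 2 and 7.65 in suckling replicate 4 to 20.2 in suckling replicate 1, and from 12.5 to 22.1 in weaned arrays. The median difference was 0.73, and 1.05 without suckling replicate 1. The 2 suckling arrays with the lowest sums had the highest IGFBP2 values; whether this bears on IGFBP2 was not tested.

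Mesenchymal cells are a known source of IGFs and of binding proteins. Of 10 fibroblast and matrix markers 4 were tested, and all 4 had a lower weaned mean, none past the threshold. Their sum was 79.1 to 119 in suckling and 69.5 to 106 in weaned arrays, and their median difference was -0.38, and -0.48 without suckling replicate 1. For smooth muscle, 4 of 8 markers were tested, with sums of 128 to 278 and of 70.4 to 241, and 3 had a higher weaned mean, or 2 without suckling replicate 1. The median difference of these 4 was 0.089, and 0.003 without that array. Weaned replicate 2, with the lowest muscle sum, had the highest IGFBP5 value of all arrays, at 1.71. Weaned replicate 1 had nearly the same IGFBP5 value, 1.67, with a muscle sum of 201. The part of smooth muscle in the IGFBP5 values was not tested. Endothelium had 5 of 7 markers tested. Their sums, 16.2 to 17.8 in suckling and 14.3 to 14.5 in weaned arrays, did not overlap. Among single markers with all 8 arrays, the groups of CDH5 alone did not overlap, as those of 7.75% of all tested probes did not. The groups of PECAM1, VWF, KDR and ENG overlapped. Of the 5 markers, 4 had a lower weaned mean and none passed. The median difference of the 5 was -0.34, and -0.35 without suckling replicate 1.

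Of the other lists, none of the tested markers passed the threshold with all 8 arrays or without suckling replicate 1. Enteroendocrine cells had 5 of 7 markers tested, 3 with a lower weaned mean (4 without suckling replicate 1), and a median difference of -0.10 (-0.27 without it). Their sums, 29.5 to 74.2 in suckling and 17.3 to 25.6 in weaned arrays, did not overlap. CHGB (-0.94, limma adjusted p = 0.157) and CCK (-1.16, limma adjusted p = 0.232) had the smallest p of this list, and 2 markers had a higher weaned mean. The groups of CHGB and CCK did not overlap, as those of 7.75% of all tested probes did not. Those of CHGA, GCG and SCG2 overlapped. Lymphocytes had 7 of 8 tested, 6 with a higher weaned mean in both runs, and sums of 3.28 to 4.71 and 3.47 to 5.47. Their median difference was 0.30, and 0.37 without suckling replicate 1. Macrophages and neutrophils had 5 of 8 tested, 4 with a higher weaned mean in both runs, and sums of 8.15 to 20.9 and 12.3 to 26.1. Their median difference was 0.64, and 0.73 without suckling replicate 1. In the macrophage and neutrophil list, S100A8 was well above background on 7 of the 8 arrays and S100A9 on 4, and the other tested markers of that list on all 8. The part of these cell types in the values of the axis genes was not tested.

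**Figure D4:**
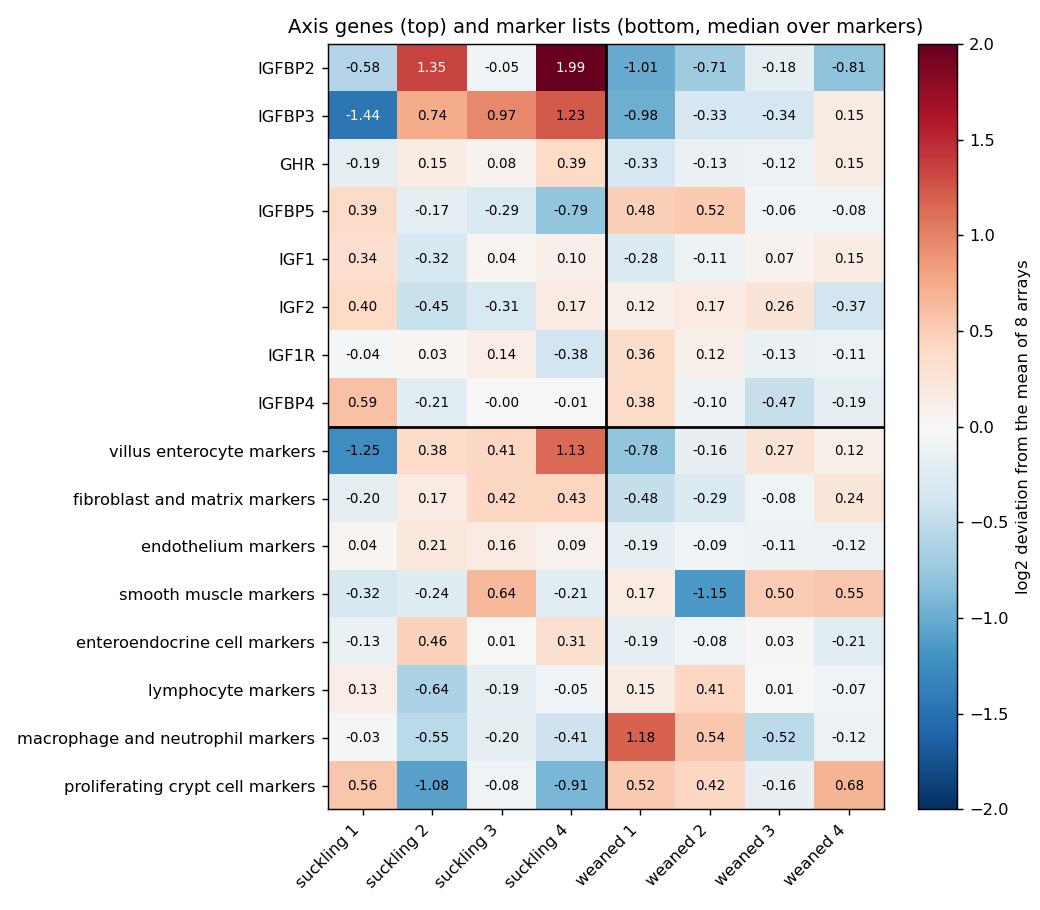
Log2 deviation from the mean of the 8 arrays (colour and printed value) of each axis gene, above the black line, and of the median marker of each of 8 cell type lists, below it, with the arrays along the x axis. Suckling replicate 1 has the lowest IGFBP3 value (-1.44) and the lowest villus enterocyte value (-1.25), and suckling replicate 4 has the highest of both (1.23 and 1.13).

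The rest of the pathway was read from 68 further genes in 4 lists, of which 32 had a probe and 27 were tested. None of the 27 passed the threshold with all 8 arrays or without suckling replicate 1, by limma. At an unadjusted p under 0.05 there were 2 with all 8 arrays, IGFBP7 and SOCS3, where 12.3% of all tested probes reached that level, and 8 without suckling replicate 1, where 22.5% of all tested probes reached that level. With all 8 arrays the groups of 2 of the 27 did not overlap, as those of 7.75% of all tested probes did not. Without suckling replicate 1 those of 8 did not overlap, beside 20.5% of all tested probes. The median difference of the 27 was -0.021, with 13 higher and 14 lower, and -0.10 without suckling replicate 1, with the same counts. No list member of the IGF mRNA binding proteins had a probe.

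Hormones, carriers and proteases had 9 of 18 genes tested, with 2 higher and 7 lower weaned means and a median difference of -0.37 (-0.52 without suckling replicate 1). IGFBP7, a matrix-bound protein with low affinity for IGFs that is prominent in vessels, had 6.26, 6.37, 6.84 and 6.60 in suckling replicates 1 to 4 and 5.67, 5.93, 5.86 and 6.26 in weaned replicates 1 to 4. Its groups did not overlap, as those of 7.75% of all tested probes did not. Suckling replicate 1 and weaned replicate 4 were nearly equal. The difference was -0.59 (SE 0.19, limma adjusted p = 0.278), or -0.67 without suckling replicate 1 (limma adjusted p = 0.0964). All 3 IGFBP7 probes were lower, by differences of -0.46 to -0.65. The endothelium sums above were also lower in all weaned arrays; their part in the IGFBP7 difference was not tested.

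GHRL encodes ghrelin, a gut hormone that releases growth hormone. It had 0.89, 4.91, 2.85 and 3.94 in suckling replicates 1 to 4 and 0.73, 2.56, 2.69 and 0.77 in weaned replicates 1 to 4. Suckling replicate 1 was near the lowest weaned arrays and the other 3 suckling arrays were above all weaned ones. The difference was -1.46 (SE 0.84, limma adjusted p = 0.522), and -2.21 without suckling replicate 1 (limma adjusted p = 0.104). The enteroendocrine sum, mostly CCK signal, was also lowest among suckling arrays in replicate 1, at 29.5, but nearly as low in replicate 3, at 30.7. Its part was not tested.

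IGFALS, the subunit that stabilises circulating IGF complexes, had a difference of -0.44 (limma adjusted p = 0.650). In the run without suckling replicate 1 it had -0.43. Its probe was dim, with a processed intensity between 11.3 and 34.5, and was well above background on 4 suckling and 3 weaned arrays. Of the genes in this list, 5 had a probe but were too dim to test. GH1, growth hormone itself, and GHRH, its releasing hormone, were well above background on 0 of 8 arrays, INS, insulin, on 1, and GHSR and STC2 on 2 each.

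Growth hormone signalling had 6 of 10 genes tested, 2 higher and 4 lower, with a median of -0.051, and -0.16 without suckling replicate 1. SOCS3, a feedback inhibitor that cytokines induce, had -3.43, -4.43, -4.51 and -4.65 in suckling replicates 1 to 4 and -2.65, -3.27, -4.08 and -3.38 in weaned replicates 1 to 4. Suckling replicate 1 lay among the weaned arrays, and the other 3 were below all of them. The probe was dim, with a processed intensity between 13.6 and 50.5. The difference was 0.91 (SE 0.35, limma adjusted p = 0.354), and 1.19 without suckling replicate 1 (limma adjusted p = 0.0790). Macrophage and neutrophil sums given above were highest in weaned replicate 1, the array with the highest SOCS3, and their part was not tested. SOCS2, a feedback inhibitor of growth hormone signalling, had differences of -0.31 and -0.32 by its 2 probes (limma adjusted p = 0.639 and 0.694), and its brightest probe had -0.49 without suckling replicate 1 (limma adjusted p = 0.194). JAK2 had -0.25 by its brightest probe and 0.19 by the other (limma adjusted p = 0.613 and 0.797), and the brightest had -0.40 without suckling replicate 1 (limma adjusted p = 0.183). The transducers STAT5A and STAT5B, given for their role and outside the naming rule, had -0.021 and -0.082, and -0.10 and -0.21 without suckling replicate 1.

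Insulin and IGF receptor signalling had 12 of 37 genes tested, 9 higher and 3 lower, with a median of 0.14, and 0.13 without suckling replicate 1. GRB2, an adaptor between receptors and RAS, had a difference of 0.33 by its brightest probe (limma adjusted p = 0.445) and 0.087 by its other probe. Without suckling replicate 1 these probes pointed in opposite directions, at 0.26 and -0.073. FOXO3, a transcription factor that AKT kinases hold out of the nucleus, had -0.47 (SE 0.25, limma adjusted p = 0.485). Its values were -2.52, -1.72, -1.36 and -1.61 in suckling replicates 1 to 4 and -2.44, -2.14, -2.09 and -2.43 in weaned replicates 1 to 4. Suckling replicate 1 was the lowest of all arrays, and the other 3 suckling arrays were above all weaned ones. The difference without that array was -0.71 (limma adjusted p = 0.0667). PTPN1, a phosphatase of the insulin receptor, had 0.29 to 0.32 by its 3 probes, none past the threshold, and 0.37 by the brightest without suckling replicate 1. MTOR, the growth kinase, was the 1 of 12 tested genes of this list whose groups did not overlap with all 8 arrays, as those of 7.75% of all tested probes did not. It is outside the naming rule and was picked after its values were seen. Its difference was 0.16 (SE 0.13, limma adjusted p = 0.643), and 0.14 without suckling replicate 1.

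**Figure D5:**
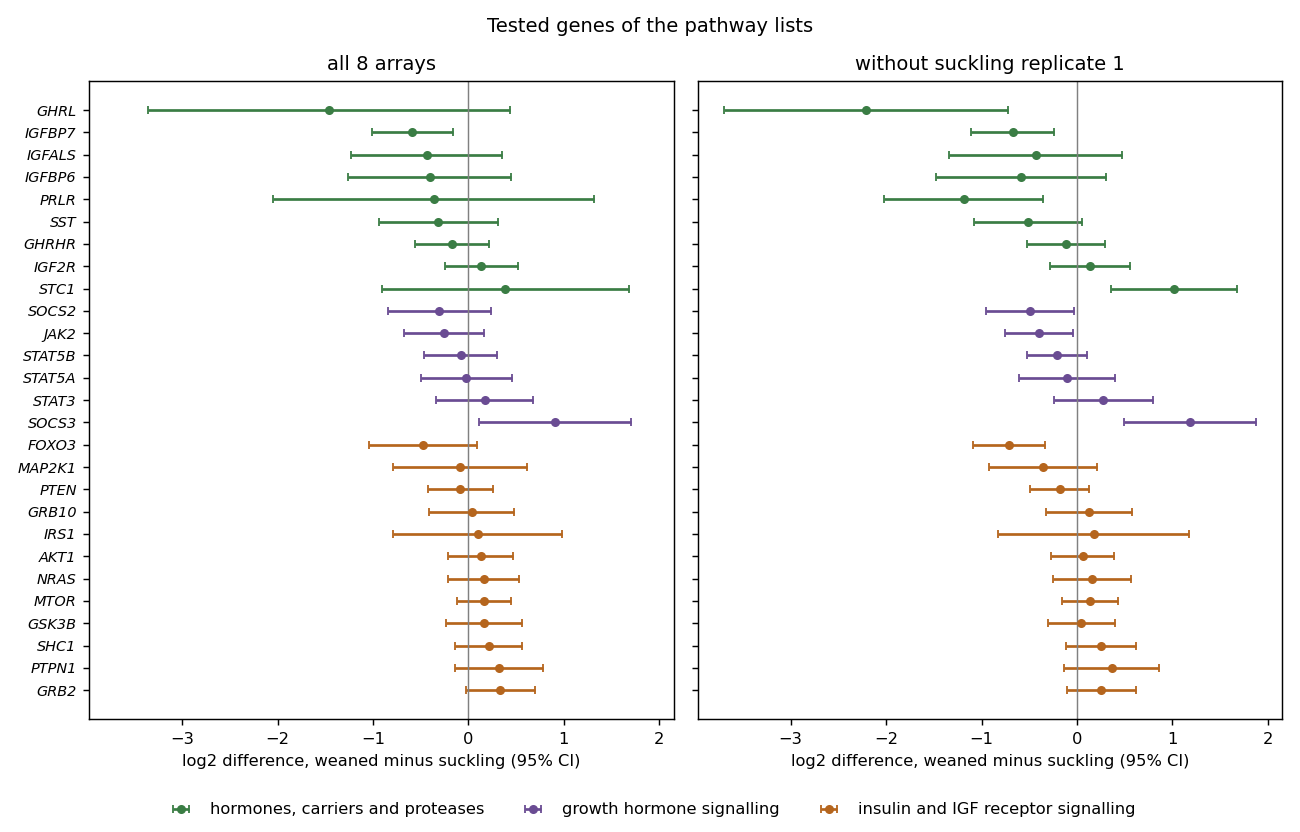
Log2 difference between weaned and suckling piglets (x axis, points with limma 95% confidence intervals) for the 27 tested genes of the pathway lists, coloured by list, with all 8 arrays on the left and without suckling replicate 1 on the right. GHRL lies farthest to the left in both panels, at -1.46 and -2.21, and SOCS3 farthest to the right, at 0.91 and 1.19.

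The genes whose profile was most like that of an axis gene were ranked by Pearson r over the 8 arrays among 2772 named genes, as a description with no test. For IGFBP2 they were GP1BB (0.98) and ITGB5 (0.98), and for IGFBP3 they were LEAP2 (0.99) and YIPF5 (0.97). IGFBP5 was most like SELRC1 (0.96) and TATDN3 (0.95). GHR was most like SPARC (0.97), which is also in the fibroblast and matrix list, and ATP5E (0.96). High values were found for every axis gene over 8 points and so many genes: IGF2, with the lowest first-ranked value of the 8, still reached 0.90 with PLTP. How often chance gives such values was not tested.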

How the data were processed

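The deposited scanner files hold, per spot, a processed intensity that the extraction software had already background-subtracted, written to 3 significant digits, with spot and background intensities and flags. The software was Agilent Feature Extraction 10.7, per the submitters' processing notes. The deposited table of the series holds log2 values with the same distribution on every array; its normalisation is not given in the sources used here.

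Control spots were left out, outlier spots were set to missing and spots of a probe were averaged on the log2 scale, giving 43603 probes, of which 6924 were named by matching RefSeq accessions without versions to RefSeq's genes of Sscrofa11.1. Each array's 75th percentile was subtracted. A probe was tested when well above background on at least 4 arrays with at least 3 values per group; per array, between 67.6% and 71.0% of probes were that bright. Groups were compared with limma 3.58.1 (R 4.3.3), two-sided, with Benjamini-Hochberg adjustment over all tested probes; the script was checked on simulated data. The number of arrays limits the precision.

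The naming rule took every axis gene with a probe, up to 3 genes of smallest p per pathway list and up to 2 per marker list, of which few are printed. Replicate numbers are shared between groups and coincide with the position on the slide, so the replicate block is also a block of position. No label ties the numbers to litters, so the block is an alternative. Alternatives were other scaling, normexp with an offset of 50, other filters, flagged spots kept, another variance model, array weights, the replicate block, the deposited log2 table, other probe choices and each array left out. The axis genes and lists were chosen with earlier results of these data known.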

Additional observations from a re-analysis of the deposited data

Results flagged for a closer look

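Of 18 groups of 4 values examined, the 8 axis genes and the 75th percentile of processed intensity in both groups, 1 held a value standing far off the remaining 3; chance alone would give about 0.9 such groups. It was the 75th percentile of weaned replicate 1, which was 317 against 384 to 390 in the other weaned arrays (gap to the nearest array divided by the range, 0.918). Among the axis genes, IGFBP3 in suckling replicate 1 came closest to the critical value, with 0.816.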

How the results depend on the processing

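Over 160 combinations of an axis gene and an alternative, 157 kept the direction and the side of the threshold, 2 changed sign and 1 passed newly. When each array was left out in turn, IGF1 ranged from -0.20 to 0.017, turning without suckling replicate 1, and IGF2 from -0.042 to 0.24, turning without suckling replicate 2. IGFBP3 ranged from -1.35 to -0.46, passing without suckling replicate 1, and IGFBP2 from -1.77 to -0.91 (limma adjusted p = 0.0782 to 0.637), not passing in any of the 8 runs. The number of axis genes past the threshold ranged from 0 to 1 in these runs and was 0 under every other alternative run. The number of probes past it ranged from 9 without weaned replicate 4 to 553 without suckling replicate 1, and was 328 with array weights and 0 with the replicate block. With the block 4194 probes had an unadjusted limma p under 0.05, against 3765 without it. The block changed no call among axis or pathway genes, and the cause of the lost calls was not tested. Deviations of same-numbered arrays correlated at 0.37, 0.0076, 0.19 and -0.018 for numbers 1 to 4, and 2 of 4 suckling arrays correlated best with their own number, so the numbers were not taken as pairs. A run of normexp with the median background at flagged spots was added after seeing the data; it gave 78 probes past the threshold, and no axis or pathway gene. Signal over background was too low to test 5 hormone and carrier genes.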
